A study of Mus musculus with 8 samples.

Results

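The edited sites described here are 298 single adenosines of the mouse transcriptome that the deposited site table lists for Th17 cells and not for naive CD4 T cells. Th17 cells are the interleukin-17 producing helper T cells that arise from naive CD4 T cells in culture. A site belonged to this set when the table gave an editing level, the share of reads that carry the edited base, in both Th17 libraries and a dot in both naive libraries. The table holds 869 sites, of which 101 are listed for both kinds of cell and 470 for naive cells only, so that 399 sites are listed for Th17 cells in all. The sites were thus chosen by their listing and levels in these 4 libraries, and the levels are given below as a description without a test. No site had a level in only 1 of the 2 libraries of a group, so the table shows no values just outside the rule. The lowest score among the 298 sites was 0.9904, beside the 0.99 that the labels name as the limit of listing.

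All samples were CD4 T cells of C57BL/6 mice, with ribosome-depleted RNA sequenced in 2 libraries per group. The naive cells were untreated and wild type. The Th17 cells, also labelled wild type, were cultured for 72 h. Their medium held antibodies to CD3 (0.25 µg/mL) and to CD28 (1 µg/mL) as the stimulus, and the cytokines TGF-β (0.1 ng/mL) and IL-6 (20 ng/mL). A separate pair of groups, wild-type Th17 cells and Th17 cells labelled DDX5∆T and DDX5-deficient, had the same treatment and its own site table. DDX5 is an RNA helicase, and what drives its deletion is not given in the sources used here. The labels name no animals, so errors between libraries may be technical, although the series is described as having independent biological replicates. The descriptions of naive library 2 and Th17 library 2 carry the same number and those of library 1 carry different ones. What that number stands for is not given in the sources used here.

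A-to-I editing is the deamination of adenosine to inosine in double-stranded RNA by the ADAR enzymes, and inosine is read as guanosine by ribosomes and by reverse transcriptase. Most editing in mammals falls in non-coding parts of transcripts where inverted repeats fold back on each other, and it keeps the cell's own double-stranded RNA from being sensed as foreign. A few sites lie in coding sequence and change the encoded residue. The catalytic enzymes are ADAR1, encoded by Adar, and ADAR2, encoded by Adarb1.

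The sequences that carry these descriptions are the 21 bases centred on a site. They were read from GENCODE M21 transcripts of mm10 and are written 5′ to 3′ on the transcribed strand, with adenosines of the set in capitals. The first lines show the host with the most sites, the 3′ UTR of Rpa1 on the minus strand of chromosome 11, and pair each of 2 windows with the stretch of the same transcript that can base-pair with it.
Rpa1 window chr11:75301005-75301025: aacagaaattAtgtcAcaAgt
Rpa1 stretch facing it, chr11:75300569-75300589: acttgAgacacAAtccctgtt
Rpa1 window chr11:75301022-75301042: aaAttttgttAtcttcaaaca
Rpa1 stretch facing it, chr11:75300552-75300572: tgtttgaAgatAAcAgaatct
The first of these pairs has 4 mismatches and the second 2. The first pair holds the 3 sites of the set with the highest levels, at positions 75301015, 75300578 and 75300577.

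Similar facing stretches lie in the 3′ UTRs of Mad2l1, Rnf168, Wdr76 and Fnbp1. They are shown because these hosts hold many of the sites and because the pairs run from 0 to 4 mismatches.
Mad2l1 window chr6:66540271-66540291, plus strand: agaagcgtttAaAtgtaaaca
Mad2l1 stretch facing it, chr6:66540640-66540660: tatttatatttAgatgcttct
Rnf168 window chr16:32300236-32300256, plus strand: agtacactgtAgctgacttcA
Rnf168 stretch facing it, chr16:32299921-32299941: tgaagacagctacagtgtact
Wdr76 window chr2:121544259-121544279, plus strand: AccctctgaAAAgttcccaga
Wdr76 stretch facing it, chr2:121543776-121543796: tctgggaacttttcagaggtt
Fnbp1 window chr2:31030354-31030374, minus strand: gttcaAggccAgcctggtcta
Fnbp1 stretch facing it, chr2:31031767-31031787: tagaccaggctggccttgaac
The mismatches in the 21 bases numbered 4 for Mad2l1, 1 for Rnf168, 1 for Wdr76 and 0 for Fnbp1.

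Sites in coding sequence are shown because each has its own effect on the codon. In Flna the window spans an exon junction, so only the position of the site is given.
Flna site at 74226862 of chromosome X, minus strand: tctagtcttcAggagtcaggg
Cog3 window chr14:75719709-75719729, minus strand: cattaaggaaAtttccctgga
Azin1 window chr15:38491602-38491622, minus strand: aattgtggaaAgctgtcttct
Blcap window chr2:157558139-157558159, minus strand: gagatcatgtAttgcctccag
Adarb1 window chr10:77322597-77322617, minus strand: aggcgttgtaAgttactcttt

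Before any result, the strand of the sites has to be stated. Of the 298 sites, 106 lie on the plus and 192 on the minus strand. The sites listed for both kinds of cell divide into 98 plus and 3 minus. Those listed for naive cells only divide into 419 plus, 11 minus and 40 of unknown strand, with the strand taken from the annotated gene. At sites listed for Th17 cells, where the file gives a strand, the gene had that strand at 354 of 359 sites, or 98.6%. The separate culture's table is near even, with 170 plus and 185 minus sites.

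Seen from the 399 sites listed for Th17 cells, 98 of the 204 on the plus strand were also listed for naive cells. That is 48.0% (exact Clopper-Pearson 95% interval 41.0 to 55.1, which counts sites as independent). Of the 195 on the minus strand 3 were, or 1.54% (0.318 to 4.43). Naive cells thus have almost no listed site on the minus strand. A dot for naive cells at the 192 minus-strand sites can therefore not be read as less editing there. Why the list for naive cells has this makeup was not tested. Results are given for all 298 sites and, where the strands differ, for the 106 plus-strand sites alone.

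**Figure D1:**
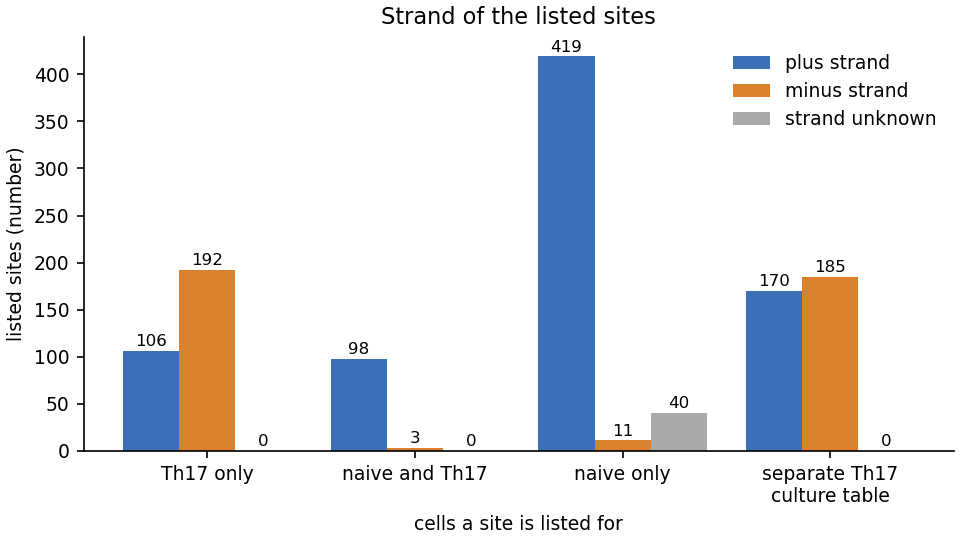
Number of listed sites (vertical axis) by the cells they are listed for (horizontal axis), with plus-strand sites in blue, minus-strand sites in orange and sites of unknown strand in grey. The list for naive cells is nearly all plus strand, with 98 and 419 plus against 3 and 11 minus sites, whereas the table of the separate Th17 culture holds 170 plus and 185 minus sites.

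Editing levels covered nearly the whole scale. In Th17 library 1 the lowest level was 3.08%, the median 25% and the highest 99.5%, and in library 2 they were 3.32%, 28.6% and 98.8%. Between the libraries the levels correlated across the 298 sites at r = 0.782 and rho = 0.805, as a description, since sites of a gene share transcripts and each library is 1 sample. The median difference between the libraries was 6.67 percentage points, with 128 sites higher in library 1, 168 higher in library 2 and 2 equal. Of the sites, 55 had a mean level of at least 50% and 31 a mean level under 10%. On the plus strand alone the median was 29.1% in library 1 and 33.3% in library 2, and on the minus strand 24.3% and 26%.

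The deposited coverage, the reads over a site, is that of Th17 library 2, where level times coverage is whole at all 298 sites. It had a median of 14 reads and ran from 5 to 784, with 108 sites under 10 reads and 124 at 20 or more. Edited reads in that library had a median of 4, and 67 sites were listed on 2 edited reads. Level and coverage went in opposite directions: the median mean level was 38.6% at the sites under 10 reads, 15.1% at those with 20 or more and 9.35% at the 25 with 100 or more. The lowest mean level was 17.6% under 10 reads and 4.01% at 20 or more, and no site had fewer than 2 edited reads in library 2. How far the rule of listing makes this relation was not tested. Plus-strand sites had a median coverage of 8 reads and minus-strand sites of 22. Intervals of levels cover only the error of counting reads, which are PCR copies without molecular identifiers and so not independent.

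**Figure D2:**
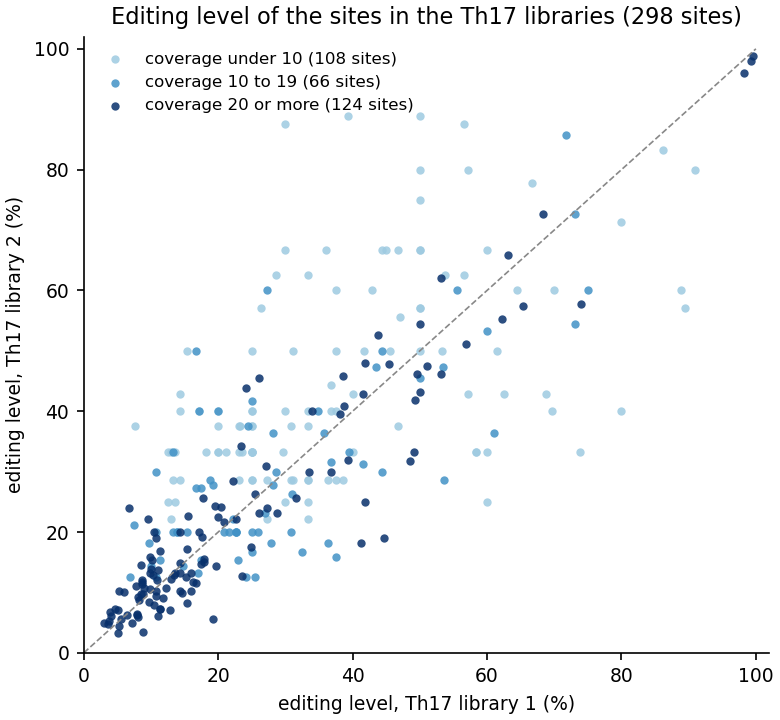
Editing level of each of the 298 sites in Th17 library 1 (horizontal axis, percent) and library 2 (vertical axis, percent), coloured by coverage in library 2, with a dashed line of equal levels. The 124 sites with 20 or more reads lie near the line and mostly low, with a median difference of 3.48 percentage points, and the 108 sites under 10 reads spread more widely, with a median difference of 12.5.

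Most of the sites lay in 3′ UTRs. The deposited table places 235 of the 298 there (78.9%), 36 between genes, 18 in introns and 9 in coding sequence. On the same strand in GENCODE M21, 239 sites (80.2%) lay in a 3′ UTR, 11 in coding sequence, 10 in introns and 8 in non-coding exons. The share in 3′ UTRs was 79.2% of the plus-strand and 80.7% of the minus-strand sites. It was 96.0% of the sites listed for both kinds of cell and 77.4% of those listed for naive cells only. A further 17 sites of the set lay downstream of a gene on its own strand, 13 of them within 2000 bases of its annotated end. The largest such group is 10 sites that begin 70 bases past the end of Ccr4 and stop at 161 bases.

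The sites were clustered. Another site of the set lay within 100 bases for 191 of them (64.1%), and the median distance to the nearest one was 20.5 bases. With the same measure 52.5% of the sites listed for both kinds of cell and 38.5% of those listed for naive cells only had a neighbour of their own list. Joining sites at most 100 bases apart gave 157 clusters, of which 107 held 1 site and 27 held at least 3, and those 27 held 145 sites (48.7%). The cluster with the most sites was in Rpa1, with 16 sites in 88 bases.

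A host gene was found for 274 of the 298 sites, 111 genes in all. The host was taken as the gene the file names or else the GENCODE gene over the site, which for 6 sites is on the other strand. Of these hosts, 12 held 120 sites (40.3%). A single site was found in 68 hosts and 5 or more in 16. No site listed for naive cells lay in 88 of the hosts, which were 68 of the 69 hosts on the minus strand and 20 of the 42 on the plus strand. The 77 sites of the set in a host with a naive-listed site were mostly on the plus strand (72). By list, 14 held a site listed for both kinds of cell and 18 a site listed for naive cells only. Wdr76, a WD-repeat protein gene, held all 3 kinds, with 12 sites of the set, 9 listed for both and 7 listed for naive cells only.

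Rpa1, on the minus strand, encodes the large subunit of replication protein A, which binds single-stranded DNA. Its 24 sites all lay in the 3′ UTR, 8 in chr11:75300949-75301070 and 16 in chr11:75300524-75300648. These 2 segments are inverted copies of each other, 79.2% identical over an alignment of 125 bases and 300 bases apart. Levels in the 8-site segment ran from 8.44% to 99.5% in Th17 library 1 and from 5.68% to 98.8% in library 2, and in the 16-site segment from 5.49% to 99.2% and from 5.56% to 98.0%.

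Both libraries ranked the Rpa1 sites alike at the top. The site at 75301015 had levels of 99.5% and 98.8%, with 84 of 85 reads edited in library 2 (exact Clopper-Pearson 95% interval 93.6% to 100%). The neighbours 75300578 and 75300577 had 99.2% and 98.0%, and 98.3% and 96.0%. Whether known variants were removed from the list is not given in the sources used here. The median Rpa1 site was far lower, at 16.5% and 16%.

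Mad2l1, on the plus strand, encodes a protein of the spindle checkpoint, which holds dividing cells until chromosomes are attached. Its 17 sites lay in 2 inverted segments of the 3′ UTR, 74.9% identical. The 13 sites of the upstream segment, chr6:66540067-66540304, had levels of 17.2% to 86.2% in library 1 and 20.0% to 83.3% in library 2. The 4 sites of the downstream segment, chr6:66540627-66540869, ran from 5.21% to 10% and from 10% to 13.8%, below every upstream site in either library. Coverage was 5 to 11 reads in the upstream and 37 to 65 in the downstream segment.

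Rnf168, on the plus strand, encodes a ubiquitin ligase that acts at DNA breaks. Its 10 sites, at 20.0% to 60.0% in library 1 and 33.3% to 66.7% in library 2, fell 6 and 4 into segments that are 87.9% identical, with 5 to 7 reads of coverage. Wdr76 had 4 and 8 sites in such segments, from 11.4% to 70.0% and from 15.4% to 75%. In these 2 hosts the coverage did not exceed 15 reads, so single levels are imprecise.

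Ccr4 encodes a chemokine receptor of helper T cells. Its 8 sites in the 3′ UTR had levels from 3.08% to 27.1% in library 1 and from 4.94% to 30.9% in library 2, over 55 to 83 reads. The 10 sites past its annotated end were higher, from 17.1% to 63.1% and from 20.0% to 65.8%. No inverted copy was found in the Ccr4 transcript for the 8 sites, and the sequence past the end was not analysed here.

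Among the other hosts with most sites, Ankrd28, a phosphatase 6 subunit gene, held 9 sites, Fnbp1, a gene of an actin and membrane adaptor, 7, and Slc35e2, of a sugar transporter family, 7. Gabpb2, a subunit of the GA-binding transcription factor, Ovca2, a serine hydrolase gene, and Prrg4, a membrane protein gene, held 6 each. Their median levels lay between 17.7% in Gabpb2 (library 2) and 51.4% in Ovca2 (library 1). The 6 Prrg4 sites lay within 40 bases and had levels of 9.91% to 38.5% in library 1 and 13.2% to 45.9% in library 2.

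**Figure D3:**
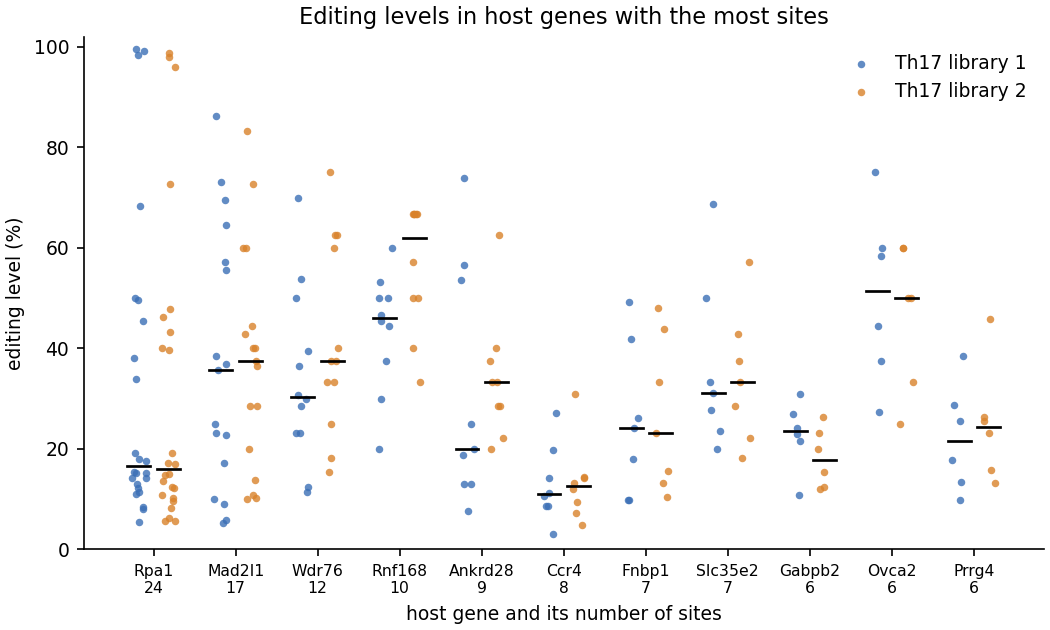
Editing level (vertical axis, percent) of each site in 11 of the 12 host genes with the most sites (horizontal axis, with the number of sites), in Th17 library 1 (blue) and library 2 (orange); black bars are medians. Only sites in 3′ UTRs are drawn. Rpa1 has 3 sites above 95% and a median near 16%, whereas the levels in the 3′ UTR of Ccr4 stay under 31%. The 10 sites past the annotated end of Ccr4, at up to 63.1% in library 1 and 65.8% in library 2, are left out.

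ADAR enzymes are known to disfavour a G just before the target adenosine. All 257 sites in annotated exons were adenosines of the transcript. The base 5′ of the site was G at 9 of them (3.50%), against 22.1% of 7535 adenosines within 100 bases. It was T at 38.9%, against 19.1%, A at 36.6%, against 30.1%, and C at 21%, against 28.8%. The base 3′ of the site was G at 40.5%, against 28.8%. On the plus strand alone 2 of 90 sites (2.22%) had a 5′ G, and on the minus strand 7 of 167 (4.19%).

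Inverted repeats were common around the sites. A segment of at least 50 bases with an inverted copy within 2000 bases of the same spliced transcript held 148 of the 257 exonic sites (57.6%). This stands beside 2.61% of all adenosines in the same 100 transcripts, over their whole length and not only near the sites. Rpa1, Mad2l1, Wdr76 and Rnf168 held 24, 17, 12 and 10 of the 148, and sites of a gene share its repeats. The matches had a median length of 127 bases, an identity of 77.7% and a gap of 322 bases. Such segments held 52.6% of the exonic sites listed for both kinds of cell and 15.0% of those listed for naive cells only. These stand beside 2.19% and 0.608% of all adenosines in the transcripts of those sites, so the background was also lowest for naive cells only. By strand, the share was 62 of 90 (68.9%) on the plus and 86 of 167 (51.5%) on the minus strand. A facing stretch without gaps was found for the 21 bases around 91 sites, with a median of 4 mismatches, and in 42 of these it held a further site of the set.

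In coding sequence the table lists 9 sites, and 7 of them change the residue. Changes are written by their position from the first base of the coding sequence. Flna, a filamin that cross-links actin, had A7022G, which turns a glutamine codon into an arginine codon, at 31.6% in Th17 library 1 and 25.6% in library 2 (180 reads in library 2, interval 19.4 to 32.6). The Flna transcript is a known target of ADAR2.

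Cog3, a subunit of a Golgi tethering complex, had A1903G, isoleucine to valine, at 74.0% and 57.7% (26 reads, 36.9 to 76.6). Copa, a subunit of the coat of Golgi vesicles, had A490G, also isoleucine to valine, at 7.14% and 4.94% (162 reads, 2.16 to 9.50). These are the highest and one of the lowest levels among the sites in coding sequence.

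Azin1, which encodes the antizyme inhibitor of the polyamine pathway, had A1099G, serine to glycine, at 8.76% and 3.47% (173 reads, 1.28 to 7.40). Cyfip2, part of an actin-regulating complex, had A958G, lysine to glutamate, at 8.68% and 11.8% (220 reads, 7.87 to 16.8). Blcap had A5G in its second codon, tyrosine to cysteine, at 8.22% and 8.74% (103 reads, 4.07 to 15.9). Son, a splicing cofactor gene, had A1767G at 7.98% and 6.41%, and Chtf8 had A702G at 5.28% and 4.42%. Both changes leave a leucine codon in place. These 5 sites all lay under 12% in both libraries.

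Adarb1, the gene of ADAR2, carried 3 sites itself, and ADAR2 is known to edit its own transcript. The file calls all 3 intronic. In GENCODE M21, 2 of them lie in coding sequence of 1 annotated transcript, at A38G, asparagine to serine, and at A52G, serine to glycine. The first had levels of 24.4% and 37.5% over 16 reads, and the second 36.8% and 31.6% over 19. The third, in a non-coding exon at 77324060 of chromosome 10, had 89.5% and 57.1% over 7 reads.

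Of the 8 sites with the highest mean level, 4 lay outside Rpa1 and Mad2l1. They were in C330007P06Rik at 90.9% and 80.0%, AC149090.1 at 71.8% and 85.7%, and Iws1 at 80.0% and 71.4%. The last was antisense to Sp2, a zinc-finger factor gene, at 88.9% and 60.0%. Coverage of these 4 sites ran from 5 to 14 reads. In Mad2l1 the highest site, at 66540081, had 86.2% and 83.3% over 6 reads (interval 35.9% to 99.6%).

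Groups of sites outside the named hosts' exons, picked out after their values were seen, lay in several places. Nabp1, a gene of a single-stranded DNA binding protein, held 3 sites that the file calls intergenic and GENCODE M21 places in its 3′ UTR. Their levels were 20.4% to 51% in library 1 and 24.1% to 47.5% in library 2, over 77 to 101 reads. Rbpj, the gene of the Notch pathway's DNA-binding factor, had 4 sites on its antisense strand within 49 bases, at 10% to 34.8% and 14.3% to 40%. Upstream of Il21, on the other strand, 5 sites lay 6304 to 8383 bases from the gene, at 10.7% to 17.4% and 20% to 30%, over 10 to 15 reads. A further 4 sites lay 96585 to 98759 bases past the end of Stag2.

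The separate Th17 culture gave a reading in libraries that did not choose the sites. Its table lists 154 of the 298 sites (51.7%, interval 45.8 to 57.5), in 62 host genes. It lists 53 of the 101 sites for both kinds of cell and 29 of the 470 for naive cells only (6.17%). The interval for the 298 sites counts them as independent, though they cluster in hosts, and Rpa1 alone gives 22 of the 154. The share rose with coverage, from 30.6% under 10 reads to 73.4% at 20 or more. It was 41 of 106 (38.7%) on the plus and 113 of 192 (58.9%) on the minus strand, where coverage was higher.

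Levels in the separate wild-type culture resembled those in the first. Over the 154 sites the mean levels correlated at r = 0.815 and rho = 0.826, as a description across sites that share genes, and the median difference was 6.87 percentage points. The Rpa1 site at 75301015 had 99.2% and 98.6% in the wild-type libraries, and 75300577 had 98.3% and 92.1%. In Rpa1 22 of the 24 sites were listed again, and in Ccr4 6 of 8 and 9 of the 10 past its end. Of the 9 coding sites the table called so, 7 were listed again, all but those in Copa and Blcap.

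**Figure D4:**
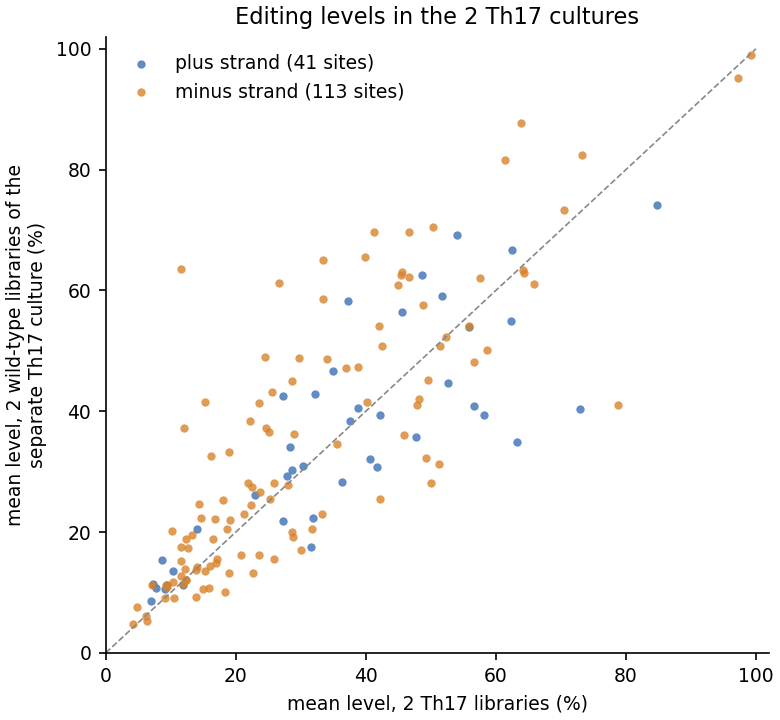
Mean editing level over the 2 Th17 libraries (horizontal axis, percent) and over the 2 wild-type libraries of the separate Th17 culture (vertical axis, percent) for the 154 sites listed in both tables, with 41 plus-strand sites in blue, 113 minus-strand sites in orange and a dashed line of equal levels. The points follow the line, with r = 0.815.

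The same table sets DDX5-deficient beside wild-type Th17 cells. At the 152 sites with a level in all 4 libraries, the median level was 29.3% and 33.3% in wild-type and 31.6% and 27.2% in the DDX5-deficient libraries. The groups overlapped, and DDX5-deficient minus wild type was -1.92 percentage points (exact two-sided permutation p = 0.667, where 2 against 2 libraries cannot go below 0.333). At 34 sites (22.4%) both DDX5-deficient libraries lay below both wild-type ones and at 36 (23.7%) above, beside 23.8% and 19.5% of all 328 sites of that table with 4 levels. On the plus strand alone, 41 sites, the medians were 33.3% and 36.4% in the wild-type and 40.0% and 33.3% in the DDX5-deficient libraries. There the difference was 1.82 percentage points, of the opposite sign, and over all 152 sites it was 0.103 without wild-type library 2 and 0.281 without DDX5-deficient library 2.

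Single coding sites went both ways between those libraries. The Flna site had 54.4% and 35.6% in wild-type and 34.8% and 22.0% in DDX5-deficient cells, with both of the latter below. Cyfip2 had 22.4% and 18% against 9.38% and 2.24%, also without overlap. Azin1 had 5.73% and 6.52% against 8.13% and 7.22%, above without overlap. Son, the gene of a splicing cofactor, had 12% and 10.8% against 4.30% and 2.07%, below without overlap. The levels in Cog3 and Chtf8 overlapped between the groups. An exact permutation test of 2 libraries against 2 cannot go below 0.333, and no test per site was run.

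Expression of the host genes was read in the same naive and Th17 libraries from counts on genes. These libraries held between 11768994 and 26624436 reads on genes. All 11 Th17 markers, such as Il17a, were higher in Th17 cells and all 8 naive markers, such as Ccr7, lower. Summed B cell markers reached 2.30 to 2.98 CPM (reads of a gene relative to its library's total) in naive and 0.558 to 1.32 CPM in Th17 libraries. Myeloid markers summed to 8.93 to 9.83 and 4.15 to 4.39 CPM, and CD8 and NK markers to 89.3 to 106 and 50.2 to 50.9 CPM. Dendritic cell markers summed to 1.70 to 2.67 and 3.94 to 4.32 CPM, and erythroid markers to 8.72 to 13.3 and 4.53 to 12.4 CPM. Single genes went both ways, with 1 called higher and 4 lower among myeloid, 1 and 3 among CD8 and NK, and 1 and 1 among dendritic cell markers. Of 7 T cell identity genes, such as Cd3e, 5 were lower and 0 higher. The part of other cells in the editing lists was not tested.

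Of the 111 host genes 103 were in the count table, and all of those passed the filter on low counts. In Th17 cells 44 of them (42.7%) were higher than in naive cells and 24 (23.3%) lower, at an adjusted p under 0.05 in edgeR, beside 34.3% and 30.7% of all 11989 tested genes. Their median log2 fold change was 0.22, beside 0.06 over all tested genes. Hosts on the plus strand divided into 19 higher and 8 lower of 38, and hosts on the minus strand into 25 and 16 of 65. For comparison, 12 of 45 hosts of sites listed for both kinds of cell were higher and 16 lower, and 46 and 129 of 259 hosts of sites listed for naive cells only. Listing needs reads over a site in these same libraries, which can favour hosts with more reads in the listed cells. The counts are therefore a description, and how much of the difference the listing makes was not tested. Without naive library 1 the counts were 37 and 19 hosts beside 2436 and 2567 genes in all, and without naive library 2 they were 34 and 18 beside 2380 and 2738. In bulk RNA, fewer cells with a transcript and less of it per cell cannot be told apart.

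Some hosts had very few naive reads. There were 11 hosts with a naive mean under 5 CPM, holding 27 sites. Il21, the cytokine gene, had 1 and 2 reads in naive cells and 7510 and 2062 in Th17 cells, a ratio of scaled reads of 2470 (exact counting interval 847 to 12000). Its site in the 3′ UTR had levels of 6.41% and 6.19%. Car5b, a mitochondrial carbonic anhydrase gene, had 0 and 1 against 352 and 227 reads, a ratio of 450 (80 to 17800), with a site at 25% and 33.3%.

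Adarb1 was both an editing enzyme gene and a host of this kind. Its level was 1.39 and 1.28 CPM in naive cells and 241 and 183 CPM in Th17 cells, a log2 fold change of 7.33 ± 0.24 (SE, adjusted p = 1.1e-07). Adar, in contrast, had 353 and 260 CPM in naive and 142 and 123 CPM in Th17 libraries, a log2 fold change of -1.18 ± 0.19 (adjusted p = 0.00058). Both genes were called, as were 65.1% of all 11989 tested genes in either direction. Among editing enzymes and their partners 19 genes were tested, with 8 higher and 6 lower, and of 13 tested double-stranded RNA sensors 3 were higher and 6 lower, beside the shares over all genes given above.

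Hosts with many sites moved both ways. Rpa1 had 307 and 355 CPM in naive and 185 and 149 CPM in Th17 libraries, a log2 fold change of -0.96 ± 0.17 (adjusted p = 0.0012). Mad2l1 had 12.5 and 15.0 CPM against 68.7 and 52.5 CPM, a change of 2.17 ± 0.18 (adjusted p = 1.3e-05). Ccr4 had 0.641 and 0.780 CPM against 256 and 155 CPM, a change of 8.20 ± 0.35 (adjusted p = 1.3e-06). All 3 were called, as were 65.1% of all 11989 tested genes in either direction.

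Others of the 12 hosts with most sites were Prrg4, higher by a log2 of 4.76, and Wdr76, higher by 0.79. Gabpb2 was lower, with a log2 fold change of -1.17, and so was Ovca2, with -1.96. Rnf168, Ankrd28, Fnbp1 and Slc35e2 were not called, with changes between -0.26 and 0.29. Among the lowest called hosts were also Tnfrsf14, a receptor gene, with -2.40, and Sp2, whose site is antisense, with -1.65.

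Hosts of coding sites likewise differed. Flna fell from 2120 and 1480 CPM in naive to 607 and 574 CPM in Th17 libraries, a log2 fold change of -1.58. Azin1 (0.70) and Blcap (1.04) were higher, whereas Copa (0.01), Cyfip2 (0.12), Cog3 (-0.28), Son (-0.52) and Chtf8 (-0.46) were not called. Chtf8 had 49 reads on the whole gene in Th17 library 2, fewer than the 113 that covered its site there, so the gene's count does not hold all reads over the site. Among the sites whose host has a count, it was the only one with more coverage than its host had reads. The sign of the Copa and Cyfip2 values changed with the settings. Without either naive library the Azin1 and Blcap calls were lost (0.67 and 0.63, and 0.86 and 1.14), and without naive library 2 Son was called lower, with -0.91.

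**Figure D5:**
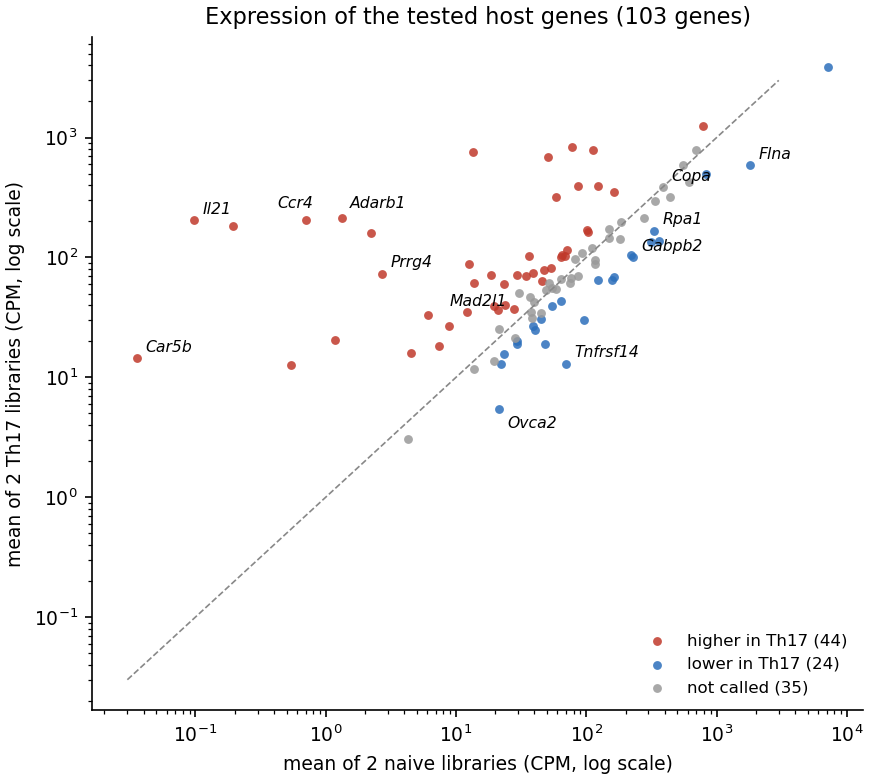
Mean expression of the 103 tested host genes in the 2 naive (horizontal axis) and 2 Th17 libraries (vertical axis), in CPM on log scales, coloured by the edgeR call, with a dashed line of equal expression. Of the hosts, 44 are higher and 24 lower in Th17 cells, and Il21, Ccr4, Adarb1 and Car5b stand far above the line.

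To see whether naive libraries could have shown the sites, the coverage in Th17 library 2 was scaled by the ratio of the host's reads, a rule of thumb that takes coverage along the gene as alike. At 69 of the 266 sites with such a value (25.9%), fewer than 5 reads would lie over the site in at least 1 naive library, against 0 of 99 sites listed for both kinds of cell. The median of the lower scaled coverage was 10.3 reads, against 30.8. Listing for naive cells needs naive reads over a site, so this contrast is largely fixed by the rule of listing and is no test. At the level measured in Th17 cells, 97 sites (36.5%) in 42 hosts would show at least 5 edited reads in each naive library.

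That number was made up mostly of minus-strand sites. It included 87 of 174 sites on the minus strand (50%) and 10 of 92 on the plus strand (10.9%), where the median lower scaled coverage was 6.79 reads. All 24 Rpa1 sites were among them, with scaled naive coverages of 115 to 304 reads. At its site with the highest level, 239 and 208 reads were scaled for the naive libraries and 207 edited reads would be seen in the lower one, yet the table has a dot there. The 10 plus-strand sites include the coding sites of Copa and Son, with 10.6 and 6.07 edited reads in the lower naive library. They also include the Sp2 site, which is antisense to the gene whose reads scaled it. The level in naive cells at these sites is not given by the table. The Chtf8 site is counted on the minus strand, though its gene's count does not hold all reads over it.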

How the data were processed

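Levels were deposited by the authors as a fraction of edited reads per site and library (0 to 1) and are printed as percent. The deposited coverage count and the score came with the sites listed for Th17 cells. SAILOR, a caller of edited sites, is named in the labels with a limit of 0.99, and mm10, STAR 2.6.1a, featureCounts and DESeq2 1.18.1 stand in the submitters' processing notes. The growth protocol in the labels gives a range of TGF-β doses. How strand was treated in calling and counting is not given in the sources used here.

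Sites were placed in GENCODE M21 of mm10. Sequences came from its spliced transcripts, and blastn 2.17.0 searched each against itself for inverted copies (E-value limit 1e-05). Deposited counts per gene (4 naive and Th17 libraries) were tested with edgeR 4.0.16 in R 4.3.3 (filterByExpr, TMM, robust quasi-likelihood fit on group, Benjamini-Hochberg over 11989 genes, called under 0.05). Tested on simulated counts, it called 58 of 100 genes with a true log2 change of 1, and 100 of 100 where that change was 2. The simulation gave all genes the same dispersion and changed few of them, unlike the data. Those numbers are therefore not the sensitivity of this comparison. CPM use TMM-scaled library sizes. Normalized values (4 columns) and ratio columns (8) were not used. Replicate numbers did not pair the libraries. Named genes were the 12 hosts with most sites, hosts of coding sites, hosts of the 8 highest sites, and Adar and Adarb1. Also named were the 3 called hosts with the largest and the 3 with the smallest log2 fold change. Sites, lists and named genes were chosen with earlier results of these data known. Alternatives covered coverage, distance, filters, scaling, DESeq2 1.42.0 and single libraries left out. Some of these genes are not reported here.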

Additional observations from a re-analysis of the deposited data

How the results depend on the processing

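The median level of the 298 sites, 28.5% as the mean of 2 libraries, was 20.8% at a coverage of at least 10 reads, 15.1% at 20 or more, 31.7% on the plus strand alone, and 25% to 28.6% with either Th17 library left out. The share in 3′ UTRs was 75.2% with each host weighted equally, and the share with a neighbour was 71.8% within 1000 bases. The share listed again in the separate culture was 63.7% and 73.4% at those coverages, 45.4% with hosts weighted equally and 38.7% on the plus strand. Inverted copies of at least 100 bases held 44.7% of the exonic sites, and 68.9% held one of 50 bases on the plus strand. The limit to the plus strand was chosen after the data were seen, and it leaves 19 hosts higher and 8 lower.

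The difference between DDX5-deficient and wild-type medians was -4.12 to 0.281 percentage points with single libraries left out. It turned positive without wild-type library 2 (0.103), without DDX5-deficient library 2 (0.281) and on the plus strand (1.82). The replicate block leaves a difference of library medians at -1.92 by construction. As another quantity, the median over sites of the difference within each replicate number, averaged over both numbers, was -0.259. Same-numbered naive and Th17 libraries deviated with a correlation of -0.0819, so the numbers were not taken as pairs. With single libraries left out, the genes called higher numbered 2380 to 4847 beside 4116, with 2436 without naive library 1 and 2380 without naive library 2. The log2 fold change of Copa was -0.02 with no filter, -0.00 with a mean count of at least 10, and -0.07 to 0.03 with single libraries left out. That of Cyfip2 was -0.02 to 0.19, at -0.02 without naive library 2. Low coverage limits the levels of single sites, and library 1 has no deposited coverage.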
